A study of Caenorhabditis elegans with 24 samples.

Results

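The genes described here encode short antimicrobial peptides of the *C. elegans* epidermis: 6 genes of the *nlp-29* group (*nlp-27*, *nlp-28*, *nlp-29*, *nlp-30*, *nlp-31* and *nlp-34*) and 4 caenacin genes (*cnc-2*, *cnc-4*, *cnc-6* and *cnc-11*). They were taken by name from the table of RNA-seq counts, 10 of its 46508 genes, and 7 of them reached 20 reads in at least 1 library and were tested. RNA depleted of ribosomal RNA was sequenced from whole worms of the L4 stage, the last larval stage, in 4 genotypes with 2 libraries each. The genotypes were the wild-type strain N2, the single mutants *set-9(rw5)* and *set-26(tm2467)*, and the double mutant *set-9 set-26* with both alleles, which affects both of these closely related SET and PHD domain proteins. The double mutant was kept as a heterozygote over the balancer nT1, and the labels do not say which homozygous generation these libraries hold. Nothing in the labels says that the libraries of a genotype came from separate cultures, so p-values measure the spread between these libraries, which may be technical. In RNA of whole worms, fewer epidermal cells and less RNA per epidermal cell cannot be told apart.

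The epidermis secretes these peptides under the cuticle, and they are best known for being switched on when a fungus pierces the cuticle or the skin is wounded. For the *nlp-29* group, the signal runs from the G protein-coupled receptor DCAR-1 through phospholipase and protein kinase C to the p38 kinase PMK-1, and ends on the STAT-like factor STA-2 and the epidermal GATA factor ELT-3. Expression of *cnc-2* depends on a separate TGF-beta branch that starts with the ligand DBL-1. High salt also raises *nlp-29*, and loss of the secreted mucin-like protein OSM-8 keeps it raised without infection.

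All 6 *nlp* genes lie side by side on chromosome V, from 3978825 to 3989770 (WBcel235), a stretch of 10.9 kb with 0 other genes inside. Their order is *nlp-34*, *nlp-31*, *nlp-30*, *nlp-29*, *nlp-28* and *nlp-27*, and *nlp-34* alone is on the minus strand. *cnc-11*, *cnc-4* and *cnc-2* lie with *cnc-1*, *cnc-5* and *cnc-3* on the same chromosome, from 1442342 to 1450183, and *cnc-6* stands apart on chromosome III. Each of the 10 genes has 2 coding exons, and none overlaps another annotated gene. The coding sequences of the 5 genes on which the results turn are shown because their repeats are what these peptides share, and because they bear on how well reads can be told apart. The exons are joined 5′ to 3′ without the stop codon, and the capitals mark glycine codons (GGN). They were read from WBcel235 at chrV:3984447-3984734, chrV:3989418-3989710, chrV:3980178-3980519, chrV:3978906-3979128 (minus strand) and chrV:1447265-1447540, with the others on the plus strand.
nlp-29: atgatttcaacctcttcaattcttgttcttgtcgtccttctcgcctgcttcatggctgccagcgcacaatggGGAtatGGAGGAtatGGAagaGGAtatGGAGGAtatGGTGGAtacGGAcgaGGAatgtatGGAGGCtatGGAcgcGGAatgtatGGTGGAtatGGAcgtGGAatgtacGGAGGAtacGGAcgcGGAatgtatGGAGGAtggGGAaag
nlp-27: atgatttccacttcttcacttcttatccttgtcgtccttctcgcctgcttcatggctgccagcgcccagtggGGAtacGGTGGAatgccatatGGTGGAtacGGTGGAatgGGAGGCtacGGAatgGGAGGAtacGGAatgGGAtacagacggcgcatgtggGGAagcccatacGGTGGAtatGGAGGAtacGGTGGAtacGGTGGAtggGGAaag
nlp-31: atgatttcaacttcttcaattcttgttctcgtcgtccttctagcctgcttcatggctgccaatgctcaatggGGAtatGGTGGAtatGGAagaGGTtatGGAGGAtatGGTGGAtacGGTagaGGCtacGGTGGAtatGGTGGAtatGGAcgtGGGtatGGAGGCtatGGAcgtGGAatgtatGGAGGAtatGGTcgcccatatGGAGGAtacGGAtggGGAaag
nlp-34: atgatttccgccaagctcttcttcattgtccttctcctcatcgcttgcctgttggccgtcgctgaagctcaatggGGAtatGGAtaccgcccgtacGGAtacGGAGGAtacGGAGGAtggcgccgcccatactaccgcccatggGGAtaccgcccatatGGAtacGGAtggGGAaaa
cnc-4: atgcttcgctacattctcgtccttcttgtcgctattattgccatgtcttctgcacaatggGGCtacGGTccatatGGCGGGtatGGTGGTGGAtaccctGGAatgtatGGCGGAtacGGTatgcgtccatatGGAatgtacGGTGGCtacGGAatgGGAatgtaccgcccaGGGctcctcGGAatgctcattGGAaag

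Glycine codons made up 35.6% of the 73 codons of *nlp-29* and 33.3% to 37.3% in the 5 genes from *nlp-27* to *nlp-31*. The share was 18.6% of 59 codons in *nlp-34* and 28.8% of 66 codons in *cnc-4*. *nlp-28* and *nlp-29* were the most similar pair, with 92.8% identity over aligned bases and an exact shared stretch of 44 bases, the longest among the 45 pairs. Reads that fall within such a stretch can belong to either gene, and how the counting shared them is not given in the sources used here, so the low values of *nlp-28* in particular are uncertain. The deposited values of the 7 tested genes were whole numbers in all 8 libraries.

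The bases just before the annotated gene starts are shown for *nlp-27*, *nlp-28* and *nlp-29* because these neighbours share TATAAAA, the letters of a TATA box, there. Each line holds 100 bases on the plus strand, at chrV:3989278-3989377, chrV:3987800-3987899 and chrV:3984325-3984424, with TATAAAA, and TGATAA or its reverse complement, in capitals.
nlp-27: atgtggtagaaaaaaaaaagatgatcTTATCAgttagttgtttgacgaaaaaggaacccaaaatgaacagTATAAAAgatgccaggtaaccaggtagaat
nlp-28: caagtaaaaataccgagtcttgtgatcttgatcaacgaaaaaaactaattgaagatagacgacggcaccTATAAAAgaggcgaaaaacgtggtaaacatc
nlp-29: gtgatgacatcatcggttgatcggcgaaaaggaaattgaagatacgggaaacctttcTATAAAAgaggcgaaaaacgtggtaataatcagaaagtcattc

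TATAAAA, searched on the strand of the gene, began 30 bases before the start of *nlp-27*, 31 before that of *nlp-28* and 43 before that of *nlp-29*. In windows of 250 bases before the start it was also present at *cnc-2* and *cnc-6*, and 12.3% of the 19973 windows of all protein-coding genes held it. This motif was searched after the sequences had been seen. TGATAA, the kind of motif that factors such as ELT-3 bind, was searched on both strands and was present at *nlp-27*, *nlp-31* and *cnc-2*, against 26.8% of all windows. The windows of *nlp-30*, *nlp-34*, *cnc-4* and *cnc-11* held neither motif, and the annotated starts of *nlp-30* and *nlp-31* lie well ahead of their coding regions.

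The libraries held 16363189 to 26187811 reads, and libraries of a genotype correlated with r from 0.983 to 0.989 over the tested genes. Values below are CPM, reads per 1000000 reads of the TMM-scaled library, and 3 reads, the floor used here, came to 0.118 to 0.195 CPM. As a check of the labels, the *set-9* transcript was at 90.4 and 91.4 CPM in N2 and 115 and 107 CPM in *set-26*, against 46.1 and 39.8 CPM in *set-9* and 30.6 and 32.97 CPM in *set-9 set-26*. The *set-26* transcript was not analysed here. Defining markers of epidermis, intestine, muscle, neurons, pharynx and germline were all above 0 in every library.

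Per kilobase of exon, *nlp-27* had the highest level of the family in N2, at 189 ± 76.9 CPM per kb (SD, n = 2). *nlp-31* (59.2 ± 13.5), *nlp-29* (49.2 ± 11.98) and *nlp-34* (40.1 ± 1.38) followed and were not separated from their neighbours by their spread. *nlp-30* came next at 22.5 ± 6.29 CPM per kb. *nlp-28* (3.57 ± 1.94) and *cnc-4* (2.91 ± 0.241) were far lower and overlapped. *cnc-2*, *cnc-6* and *cnc-11* were close to the floor in all genotypes. *cnc-2*, the TGF-beta target, had 1 to 9 reads a library, *cnc-11* had 0 to 6, and *cnc-6* had 0 reads in both *set-9* libraries and in *set-26* library 2 and at most 6.34 elsewhere. These 3 genes were not tested, and so few reads do not show whether they differ between genotypes.

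**Figure D1:**
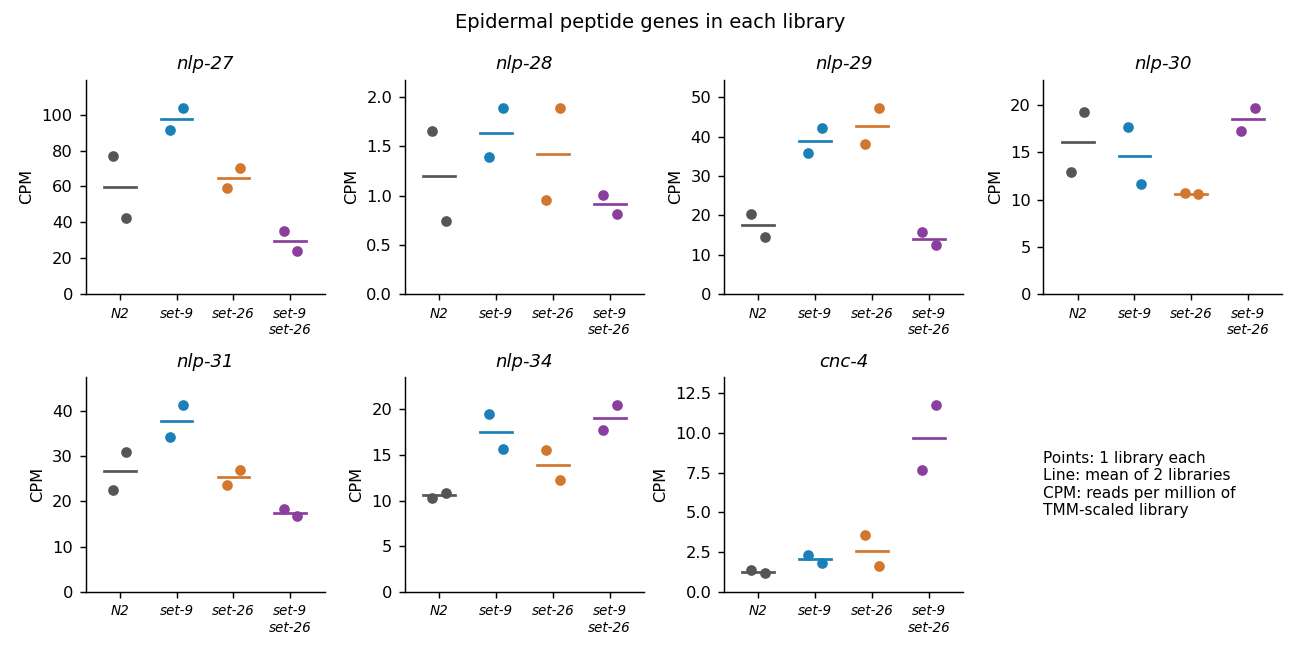
CPM (TMM-scaled, y axis) of the 7 tested genes in the 4 genotypes, with a point for each library and a line at the mean of 2 libraries. For *nlp-29* the 4 single mutant libraries, at 35.8 to 47.3 CPM, sit above both N2 and both double mutant libraries, and for *cnc-4* both double mutant libraries, at 7.63 and 11.7 CPM, sit above the other 6.

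*nlp-29*, the gene most used as a reporter of epidermal defence, was higher than in N2 in all 4 single mutant libraries but not in the double mutant, and the rise passed the test in *set-26*. It stood at 20.4 and 14.4 CPM in N2, 35.8 and 42.2 CPM in *set-9*, 38.2 and 47.3 CPM in *set-26*, and 15.7 and 12.4 CPM in *set-9 set-26*. The libraries of the single mutants overlapped with each other and with neither N2 nor the double mutant, and those of N2 and the double mutant overlapped. In *set-26*, *nlp-29* was 2.45-fold above N2, a log2 fold change of 1.29 ± 0.21 (SE) with an adjusted p of 0.029 in edgeR's quasi-likelihood test. It was the 1 of 7 tested genes called there, against 2.39% of the 14667 genes tested in either direction and 0.975% up, with 143 up and 208 down (156 and 148 under upper quartile scaling). In *set-9* the fold was 2.23, a log2 fold change of 1.16 ± 0.22, and the adjusted p of 0.073 in edgeR's test missed the 5% rate. Both folds share the N2 libraries. The direct difference between *set-26* and *set-9* was 0.13 on the log2 scale, with a 95% interval from -0.36 to 0.62.

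The call of *nlp-29* in *set-26* depended on the libraries used, with adjusted p in edgeR's test of 0.12 without N2 library 2, 0.078 and 0.17 without *set-26* library 1 or 2, 0.063 and 0.062 without double mutant library 1 or 2, and 0.096 with only N2 and *set-26* in the fit. With DESeq2 or with no filter on low counts, *nlp-29* was also called in *set-9* (adjusted p of 3.1e-04 in DESeq2's Wald test and 0.0010 in edgeR's test).

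In the double mutant *nlp-29* was at 14.1 ± 2.34 CPM (SD, n = 2) against 17.4 ± 4.24 CPM in N2, a log2 fold change of -0.31 ± 0.22 (SE) that did not pass the test (adjusted p of 0.39, edgeR). The changes of the single mutants would add up to a raised level, so the double mutant was also compared with their sum on the log2 scale, where 0 stands for plain addition. *nlp-29* lay 2.76 ± 0.31 log2 units below that sum, 6.77-fold, with an adjusted p of 0.0039 in edgeR's quasi-likelihood test. This difference stayed past the 5% rate in all 14 alternatives run, with log2 values from -3.04 to -2.54. In that comparison 3 of the 7 tested genes were called, all below the sum (*nlp-29*, *nlp-27* and *nlp-31*), against 13.9% of all tested genes in either direction and 5.6% below.

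*nlp-27*, the most abundant gene of the cluster, stood at 76.8 and 42.4 CPM in N2, 91.4 and 103.96 CPM in *set-9*, 59.2 and 70.2 CPM in *set-26*, and 35.2 and 23.8 CPM in the double mutant. Both *set-9* libraries were above and both double mutant libraries below all others, while *set-26* lay within the wide N2 range. Its log2 fold changes from N2 were 0.71 ± 0.29 in *set-9*, 0.12 ± 0.29 in *set-26* and -1.02 ± 0.29 in the double mutant, with adjusted p of 0.34, 0.90 and 0.065 in edgeR's test. Against the sum of the single mutants the value was -1.84 ± 0.41, with an adjusted p of 0.028 in edgeR's test. This call was lost without *set-9* library 2, *set-26* library 2 or either double mutant library (adjusted p from 0.060 to 0.095). The fall in the double mutant from N2 was called by DESeq2 (adjusted p of 0.0047), with no filter (0.0022, edgeR) and without N2 library 2 (0.038, edgeR).

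*nlp-31* was likewise highest in *set-9* and lowest in the double mutant, with smaller changes. It stood at 22.4 and 31.03 CPM in N2, 34.2 and 41.2 CPM in *set-9*, 23.7 and 26.99 CPM in *set-26*, and 18.3 and 16.7 CPM in the double mutant. As with *nlp-27*, *set-9* was above and the double mutant below N2 without overlap, and *set-26* fell inside the N2 range. The log2 fold changes were 0.50 ± 0.19, -0.07 ± 0.19 and -0.61 ± 0.19, with adjusted p of 0.30, 0.90 and 0.081 in edgeR's test. Against the sum of the single mutants it was -1.03 ± 0.27 (adjusted p of 0.042, edgeR), a call lost when N2 library 1, *set-9* library 2 or any library of *set-26* or the double mutant was left out (adjusted p from 0.067 to 0.13), and the fall from N2 was called with no filter (0.036, edgeR).

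*nlp-34*, the divergent gene at the end of the cluster, was the only *nlp* gene called in the double mutant against N2. It stood at 10.3 and 10.8 CPM in N2, 19.5 and 15.6 CPM in *set-9*, 15.6 and 12.3 CPM in *set-26*, and 17.7 and 20.4 CPM in the double mutant. All 6 mutant libraries were above both N2 libraries. The rise in the double mutant was 1.80-fold, a log2 fold change of 0.85 ± 0.19 (SE) with an adjusted p of 0.032 in edgeR's quasi-likelihood test. Neither *set-9*, at 0.73 ± 0.19 on the log2 scale, nor *set-26*, at 0.40 ± 0.19, passed (adjusted p of 0.15 and 0.35, edgeR), and the difference from the sum of the singles was -0.28 with a 95% interval from -0.89 to 0.33. The call was lost without N2 library 1 or 2 or without double mutant library 1 or 2, with adjusted p from 0.091 to 0.16 in edgeR's test.

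*cnc-4*, a caenacin, had the largest fitted change from N2 of the 7 tested genes. It stood at 1.34 and 1.19 CPM in N2, 2.33 and 1.82 CPM in *set-9*, 3.55 and 1.62 CPM in *set-26*, and 7.63 and 11.7 CPM in the double mutant, which rest on 34 and 21, 42 and 28, 71 and 30, and 144 and 230 reads. The double mutant libraries were above the other 6, and all 4 single mutant libraries were above N2. The rise in the double mutant was 7.59-fold, a log2 fold change of 2.92 ± 0.42 (SE) with an adjusted p of 0.0097 in edgeR's quasi-likelihood test. It was called in 13 of 15 alternatives and lost without N2 library 2 (adjusted p of 0.052, edgeR) or without double mutant library 2 (0.076, edgeR). The single mutant changes of 0.71 and 1.03 on the log2 scale did not pass, and the double mutant was 1.18 ± 0.59 log2 units above their sum (adjusted p of 0.22, edgeR). With *nlp-34* it made 2 of 7 tested genes called in the double mutant, both up, against 10.3% of all tested genes in either direction and 4.42% up. Without N2 library 2 or double mutant library 2, 0 of the 7 genes rose past the 5% rate.

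*nlp-30* and *nlp-28* passed no test. *nlp-30* stood at 12.9 and 19.2 CPM in N2, 17.7 and 11.7 CPM in *set-9*, 10.7 and 10.6 CPM in *set-26*, and 17.2 and 19.7 CPM in the double mutant. Both *set-26* libraries were the lowest of the 8, with a log2 fold change from N2 of -0.59 (adjusted p of 0.31, edgeR). *nlp-28*, at 13 to 42 reads a library, ran from 0.737 to 1.89 CPM, and its genotypes overlapped except that the double mutant lay below *set-9*.

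**Figure D2:**
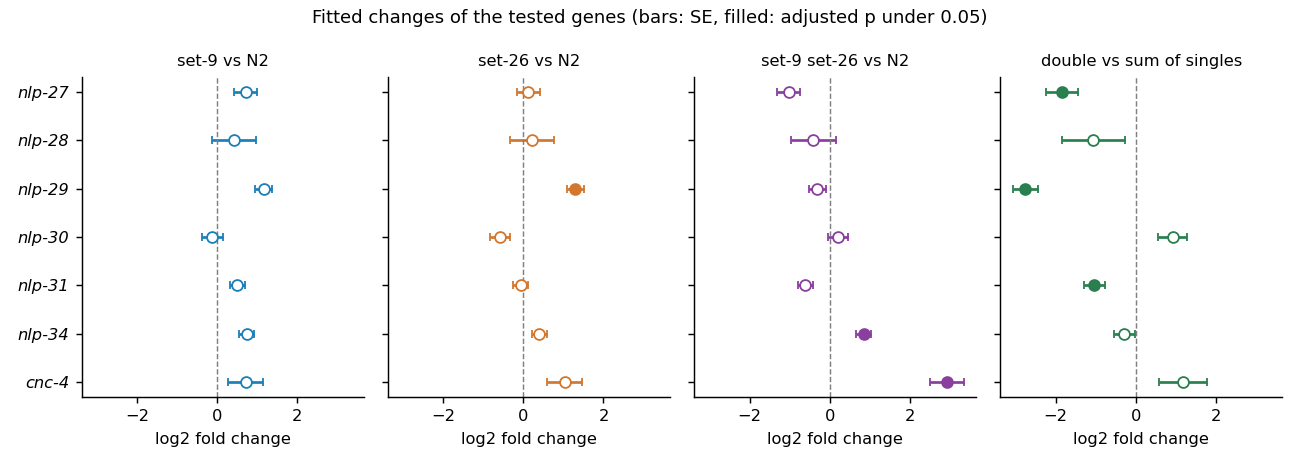
Log2 fold changes (x axis) of the 7 tested genes from N2 in each single mutant and the double mutant, and of the double mutant from the sum of both single mutant changes, with bars of 1 standard error and filled points where the adjusted p of edgeR's test was under 0.05. *nlp-29* is filled in *set-26* at 1.29, *nlp-34* and *cnc-4* in the double mutant at 0.85 and 2.92, and *nlp-27*, *nlp-29* and *nlp-31* in the comparison with the sum at -1.84, -2.76 and -1.03.

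Between the single mutants, 0 of the 7 genes were called (0.695% of all tested genes), and DESeq2 called 0. In edgeR's test 1 of the 7 had an unadjusted p under 0.05, against 2133 of all 14667 tested genes, about the same share. That member was *nlp-31*, which was lower in *set-26* by a log2 fold change of -0.57, with a 95% interval from -1.01 to -0.14. In *set-9* against N2, 0 of 7 were called by edgeR (0.464% of all tested genes), and DESeq2 called 1. Here 4 of the 7 had an unadjusted p under 0.05 (*nlp-27*, *nlp-29*, *nlp-31* and *nlp-34*), against 1947 of the 14667 genes. The median log2 fold change of the 7 genes was 0.71 in *set-9*, 0.22 in *set-26*, -0.31 in the double mutant and -1.03 against the sum of the singles, where the medians of all tested genes lay between -0.0036 and 0.0060. The 7 genes are those that passed the filter, so these medians do not speak for all 10.

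Summed over the cluster, the 6 *nlp* genes made up 144 and 118.7 CPM in N2, 200 and 217 CPM in *set-9*, 148 and 169 CPM in *set-26*, and 105 and 93.9 CPM in the double mutant. The share of *nlp-29* in that sum was 25.8% and 27.96% in *set-26* and 17.9% and 19.5% in *set-9*, against 14.1% and 12.1% in N2 and 14.96% and 13.2% in the double mutant. *nlp-34* took 16.8% and 21.8% in the double mutant and 7.14% to 10.5% in the other 6 libraries. *nlp-27* fell to 33.5% and 25.3% in the double mutant from 35.8% to 53.2% elsewhere. The *nlp-29* share in *set-26* and the *nlp-34* share in the double mutant lay above those of all other libraries.

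**Figure D3:**
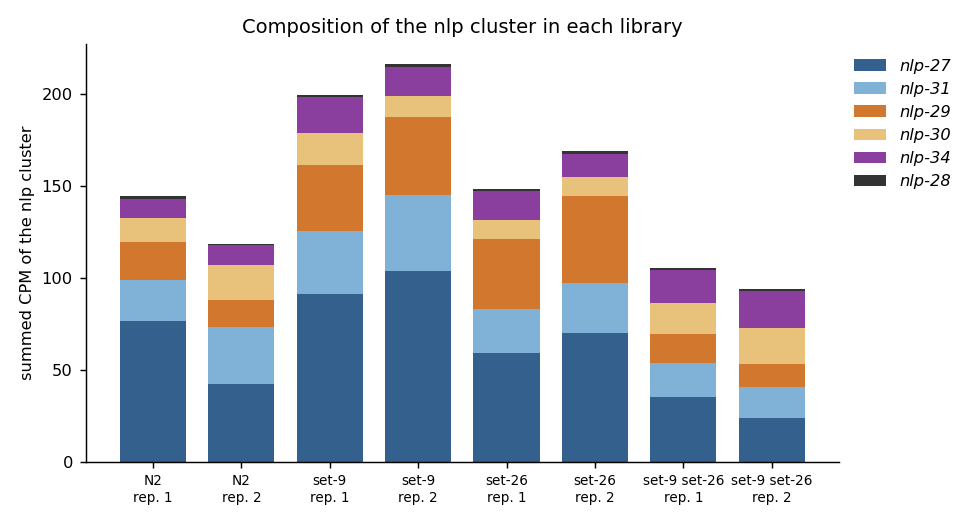
Summed CPM of the 6 *nlp* genes (y axis, from 0) in each of the 8 libraries, stacked by gene. The *set-9* libraries reach 200 and 217 CPM, the *nlp-29* share is largest in *set-26* at 25.8% and 27.96%, and the *nlp-34* share is largest in the double mutant at 16.8% and 21.8%.

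Of 12 further *nlp* and *cnc* peptide genes, 7 were tested, 0 were called in either single mutant, and 2 fell in the double mutant. Over all 14667 tested genes, 29 were called up and 39 down in *set-9*, and 143 up and 208 down in *set-26*. In the double mutant 649 were up and 867 down, and 1213 were above and 821 below the sum of the singles. These counts are the background for the lists below as well. *nlp-26* stood at 2.56 and 2.72 CPM in N2, 3.999 and 5.67 CPM in *set-9*, 2.95 and 3.35 CPM in *set-26*, and 0.424 and 0.459 CPM in the double mutant. It fell there by 2.56 on the log2 scale (adjusted p of 0.0079, edgeR). *cnc-8* stood at 58.1 and 55.0 CPM in N2, 84.3 and 80.7 CPM in *set-9*, 65.1 and 74.4 CPM in *set-26*, and 30.1 and 23.7 CPM in the double mutant, a fall by 1.07 (adjusted p of 0.0075, edgeR). Both genes were above N2 in all single mutant libraries and below it in both double mutant libraries. The fall of *nlp-26* was lost without either double mutant library and that of *cnc-8* without double mutant library 2.

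Against the sum of the single mutants, *nlp-26* (-3.69), *cnc-8* (-1.92) and *nlp-24* (-1.65) were lower and *cnc-3* (1.53) was higher, on the log2 scale and all called by edgeR. *nlp-26* and *cnc-8* stayed called with each of the 8 libraries left out, and *nlp-24* and *cnc-3* were lost without *set-26* library 2 or either double mutant library. *cnc-3*, which lies between *cnc-4* and *cnc-2*, stood at 80.8 and 118 CPM in N2, 52.9 and 63.4 CPM in *set-9*, 58.7 and 48.2 CPM in *set-26*, and 94.5 and 86.5 CPM in the double mutant. Its single mutant libraries were the lowest. The median over the 7 tested peptides was -1.58 in this comparison. With each library left out, 0 to 3 of these peptides were called in the double mutant and 2 to 5 against the sum.

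All 22 genes fixed as the p38 branch and its regulators were tested. In *set-9* 0 were called, in *set-26* 1 fell, and in the double mutant 1 rose and 4 fell, with medians of 0.12, 0.026 and -0.25 on the log2 scale. *osm-8*, whose loss raises *nlp-29*, stood at 105 and 156 CPM in N2, 41.8 and 37.3 CPM in *set-9*, 47.7 and 22.4 CPM in *set-26*, and 113 and 105 CPM in the double mutant. The single mutant libraries were all lower than the other 4, which also held for the molting genes *bli-1* and *nas-37* described below. The part of *osm-8* and of the other genes of this branch in the values of *nlp-29* was not tested. The change of *osm-8* was -1.89 ± 0.34 log2 units in *set-26* (adjusted p of 0.037, edgeR) and -1.72 ± 0.33 in *set-9* (adjusted p of 0.080, edgeR). The double mutant lay 3.35 ± 0.47 above the sum of the singles (adjusted p of 0.0088, edgeR), and this stayed called with each of the 8 libraries left out, whereas the call in *set-26* held with 2 of them left out and was lost without N2 library 2, *set-26* library 2 or any library of *set-9* or the double mutant.

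*tpa-1*, the protein kinase C of the pathway, was highest in the 4 single mutant libraries, with 35.3 and 37.7 CPM in N2, 47.7 and 55.4 CPM in *set-9*, 60.8 and 55.7 CPM in *set-26*, and 37.3 and 30.7 CPM in the double mutant. It was 1.28 ± 0.20 log2 units below the sum of the singles (adjusted p of 0.012, edgeR), with each of the 8 libraries left out as well. The C/EBP factor gene *cebp-1* rose in the double mutant, at 82.5 and 80.5 CPM against 33.3 to 43.3 CPM in the other libraries, a log2 fold change of 1.21 ± 0.11 (adjusted p of 0.0027, edgeR) that stayed called in the same way. *elt-3*, the epidermal GATA factor, fell there by 0.84 (adjusted p of 0.012, edgeR), from 89.1 and 89.0 CPM in N2 to 54.5 and 45.3 CPM, a call lost without double mutant library 2.

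The phospholipase gene *plc-3* fell in the double mutant by 1.14 and the purine nucleoside phosphorylase gene *pnp-1* by 0.71 on the log2 scale. Both calls of edgeR were lost without N2 library 2 or either double mutant library, and that of *pnp-1* also without N2 library 1. The remaining gene of the branch that fell in the double mutant was *hpd-1*, by 0.75 on the log2 scale (adjusted p of 0.019, edgeR). Its change in *set-26* was -0.61 (adjusted p of 0.066, edgeR) and in *set-9* 0.013. Against the sum of the singles 2 genes of the branch were called above (*osm-8* and *cebp-1*). Below it were 4 (*tpa-1*, *elt-3*, *pnp-1* and *pmk-1*), and the median of the branch was -0.39. *pmk-1*, the p38 kinase gene, was at -0.95 ± 0.24 (adjusted p of 0.039, edgeR) and was not called against N2 in any mutant. *cebp-1* was at 0.78 above the sum, a call that was lost when some libraries were left out. With each library left out, the calls of the branch ran from 0 to 1 in *set-26*, 1 to 5 in the double mutant and 2 to 6 against the sum. *sta-2*, the STAT-like factor, ran from 3.19 to 6.26 CPM and was not called. Of the 10 genes of the TGF-beta branch, 0 were called in either single mutant, *crm-1* fell in the double mutant by 0.86, and the Smad gene *sma-3* was below the sum by 1.12, both on the log2 scale. The call of *crm-1* held only where the library left out was from *set-9*, and that of *sma-3* only without *set-26* library 1.

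Genes of the molting cycle were taken as a check of timing within L4, and part of them differed between genotypes. Summed over 14 such genes, the level was 12095 and 16458 CPM in N2, 5844 and 7691 CPM in *set-9*, 5720 and 6298 CPM in *set-26*, and 9106 and 9020 CPM in the double mutant, and all 14 were above 0 in every library. The protease inhibitor gene *mlt-11* carried 6932 of the 12095 CPM in N2 library 1, and without it the sum was 5163 and 7587 CPM in N2, 2667 and 3290 CPM in *set-9*, 2774 and 2785 CPM in *set-26*, and 4985 and 4912 CPM in the double mutant. With or without *mlt-11*, the sum was lowest in the single mutants and below N2 in the double mutant. *nhr-25*, a nuclear receptor needed for molting, stood at 21.9 and 23.8 CPM in N2, 50.6 and 50.7 CPM in *set-9*, 66.5 and 53.2 CPM in *set-26*, and 28.1 and 26.0 CPM in the double mutant. The single mutants were thus higher than both other genotypes for *nhr-25* and lower for the summed level, and *set-26* rose by a log2 fold change of 1.39 (adjusted p of 0.0076, edgeR). In *set-26* 5 of the 14 genes fell and 1 rose, and in *set-9* 2 fell and 1 rose. In the double mutant 5 fell, and against the sum of the singles 9 were higher and 2 lower. Over all 14667 tested genes 867 fell in the double mutant, and 1213 were above and 821 below the sum. *nhr-23*, *nas-36*, *fbn-1*, *mlt-8*, *mlt-9*, *mlt-10*, *noah-2* and *acn-1* were not called in either single mutant. Of these, *mlt-8*, *mlt-9*, *mlt-10*, *noah-2* and *acn-1* still had log2 fold changes from -1.60 to -0.91 in both. *nhr-23*, *nas-36* and *fbn-1* lay between -0.33 and 0.29. The median of the 14 genes was -0.99 in *set-9*, -1.14 in *set-26*, -0.17 in the double mutant and 1.54 against the sum. DESeq2's Wald test called 10 of the 14 in *set-9*. The cuticle collagen gene *bli-1* and the molting protease gene *nas-37* fell in *set-26* by 2.03 and 1.40 and lay above the sum by 3.85 and 2.40 on the log2 scale. The rise of *nhr-25* and both differences from the sum stayed called with each library left out, while the fall of *bli-1* was lost without either *set-26* library and that of *nas-37* without N2 library 2 or *set-26* library 2. The number of molting genes called then ran from 0 to 4 in *set-9*, 1 to 7 in *set-26*, 0 to 5 in the double mutant and 5 to 11 against the sum. The part of molting stage in the values of *nlp-29* and its neighbours was not tested.

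The summed level of the epidermal markers *dpy-7*, *elt-3*, *lin-26*, *che-14* and *dpy-5* was 931 and 1387 CPM in N2, 743 and 684 CPM in *set-9*, 1057 and 806 CPM in *set-26*, and 1570 and 1620 CPM in the double mutant. The collagen gene *dpy-5* carried 1195 of the 1570 CPM in double mutant library 1. Without it the sum was 453 and 550.1 CPM in N2, 341 and 413 CPM in *set-9*, and 314 and 370 CPM in *set-26*. In the double mutant it was 375 and 372 CPM, and all mutant libraries were lower than N2. The markers did not move together in the double mutant. *dpy-7* (124 and 125 CPM, against 198 and 262 CPM in N2) and *elt-3* were lower. *lin-26* (185 and 192 CPM, against 155 and 188 CPM in N2) and *che-14* overlapped N2, and *dpy-5* was higher. The calls of edgeR among the 5 against N2 were a lower *che-14* in *set-26* and a lower *elt-3* in the double mutant, and against the sum of the singles *che-14* and *dpy-5* were higher and *elt-3* lower. The part of the epidermal markers in the values above was not tested.

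Markers of some other tissues also differed between genotypes. Of the 5 body muscle, 5 neuron and 5 germline markers, 0 were called in any comparison. The 5 intestine markers summed to 1738 and 2056 CPM in the double mutant against 2533 to 3603 CPM in the other libraries, and 3 of them fell there. The 5 pharynx markers were at 541 and 472 CPM in the double mutant against 960 to 1176 CPM elsewhere, and 3 of them fell. The 5 sperm markers ran from 41.9 to 149 CPM, and 1 rose in the double mutant. Between the single mutants the sperm marker *fer-1* was higher in *set-26* by 0.99 (adjusted p of 0.039, edgeR). The 3 vitellogenin genes, which encode yolk proteins of adults, summed to 6768 and 2706 CPM in N2, 2510 and 719 CPM in *set-9*, 473 and 95.6 CPM in *set-26*, and 4716 and 2903 CPM in the double mutant. Against N2 the median log2 value of the 3 genes was -1.52 for *set-9*, -4.47 for *set-26* and -0.38 for the double mutant, with no call. Against the sum of the singles 3 of 3 were called higher by edgeR, at a median of 5.54. The part of these markers in the values of the antimicrobial peptide genes was not tested.

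**Figure D4:**
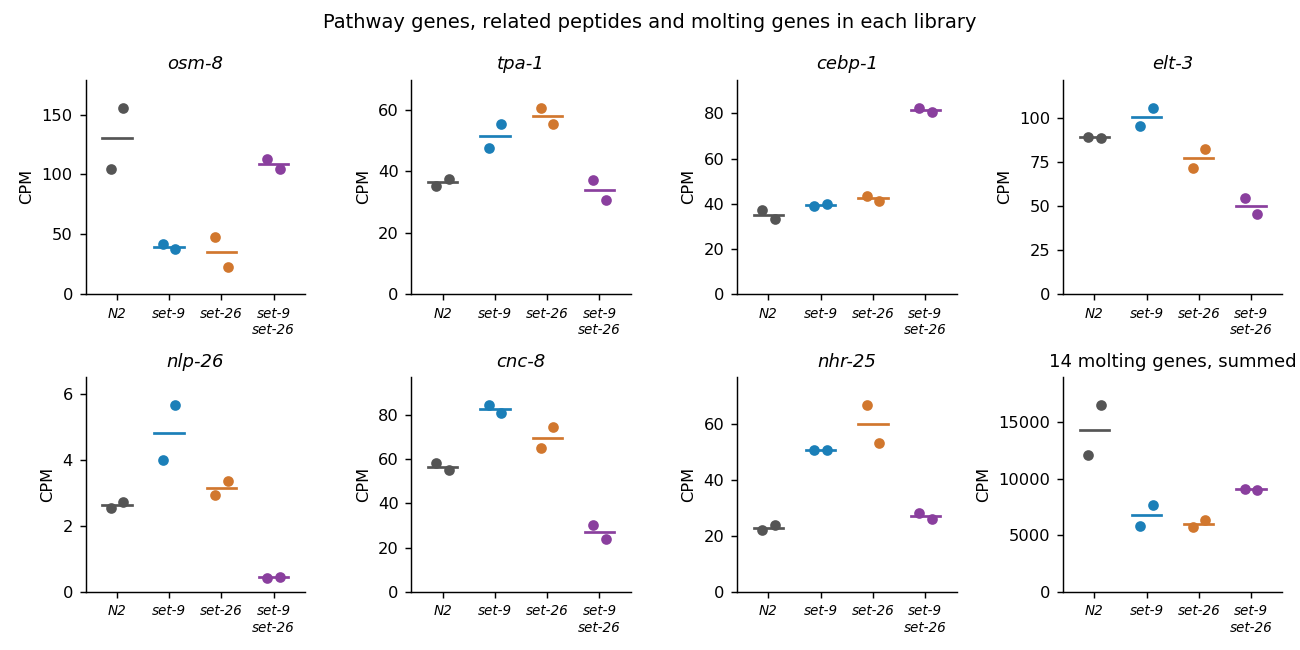
CPM (y axis) of *osm-8*, *tpa-1*, *cebp-1*, *elt-3*, *nlp-26*, *cnc-8* and *nhr-25* and the summed CPM of 14 molting genes in the 4 genotypes, with a point for each library and a line at the mean of 2 libraries. *osm-8* is lowest in the single mutants at 22.4 to 47.7 CPM, *tpa-1* and *nhr-25* are highest there, and *cebp-1* is highest in the double mutant at 80.5 and 82.5 CPM.

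Over the 8 libraries, the profiles most like that of *nlp-29* among 11103 genes with enough reads belonged to *R05H11.2* (Pearson r of 0.982), *F14H12.3* (0.980), *upp-1*, a uridine phosphorylase gene (0.980), *col-3*, a collagen gene (0.979), and *igeg-2* (0.978). *col-3*, for example, stood at 144 and 117 CPM in N2, 261 and 309 CPM in *set-9*, 248 and 298 CPM in *set-26*, and 89.3 and 89.4 CPM in the double mutant. Among the family, r with *nlp-29* was 0.817 for *nlp-27*, 0.623 for *nlp-31*, -0.036 for *nlp-34*, -0.483 for *cnc-4* and -0.794 for *nlp-30*. These r describe 8 libraries that share 4 genotype means and one scaling, and carry no test. By this measure 527 genes were closer to *nlp-29* than its neighbour *nlp-27*.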

How the data were processed

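Ribosome-depleted RNA of whole L4 worms was sequenced in 2 libraries for each of 4 genotypes. Reads of low quality were dropped by the authors with the FASTX Toolkit, cutadapt trimmed adaptors, and Bowtie took out rRNA and tRNA. TopHat2 placed the rest on genome release WS250 using known junctions only, and Cufflinks gave the deposited estimated counts per gene, unscaled. Of the values above 0, 52.3% were whole. The 93 landmark entries, which are no genes, held 0.220% to 0.278% of reads and were left out, and gene IDs were matched to symbols for 43184 of 46508 genes. The 16 ChIP-seq samples were not analysed here.

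Counts were rounded and tested in edgeR 4.0.16 (R 4.3.3) with TMM scaling, 1 mean per genotype over all 8 libraries, and the quasi-likelihood test on the 14667 genes that reached 20 reads in 1 or more libraries. Adjusted p-values follow Benjamini and Hochberg over all of these genes, at a 5% false discovery rate. The SE of a log2 fold change is its size divided by the square root of the F statistic, and 95% intervals use the degrees of freedom of that test. The common biological coefficient of variation was 0.206. With 2 libraries a genotype, an exact two-sided permutation test cannot go below p = 0.333. Floors cover counting error only. The fit was also run on simulated data with 200 changed genes. The share recovered is not given here, so how often a change of a given size would be missed cannot be read from it.

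Alternatives were DESeq2 1.42.0 (size factors, Wald test), upper quartile scaling, no filter, 20 reads in every library, a replicate block, only the compared genotypes, and each library left out. The members and lists were chosen with earlier results of these data known. All 10 members are named. At most 6 called genes of a list are named by rule, those with the smallest adjusted p. Also named are *hpd-1*, *sta-2*, *pmk-1*, molting genes called in neither single mutant and the epidermal markers, chosen after their values were seen. The 5 genes whose log2(CPM + 1) had the highest r with *nlp-29* are named too. Sequences were read from the WBcel235 genome at RefSeq, with WBcel235 gene starts, using Biopython 1.88. Figures were drawn with matplotlib 3.10.9.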

Additional observations from a re-analysis of the deposited data

Results flagged for a closer look

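For 3 of the 7 tested members, the change of the double mutant from N2 was called below plain addition of both single mutant changes. Of all tested genes, 13.9% were called in that comparison in either direction and 5.6% below. The double mutant was not tested against either single mutant alone. *nlp-29* was 2.76 log2 units below the sum of the single mutant changes (log2 value -2.76), *nlp-27* was at -1.84 and *nlp-31* at -1.03, with adjusted p of 0.0039, 0.028 and 0.042 in edgeR's quasi-likelihood test. The result of *nlp-29* held in all 14 alternatives run, whereas the calls of *nlp-27* and *nlp-31* were lost when some libraries were left out. For *nlp-29* both single mutants were above N2 in all 4 libraries while the double mutant overlapped N2. For *nlp-27* and *nlp-31* only *set-9* was above N2 and the double mutant was below it in both libraries. The molting genes, summed, were lower in the single mutants than in N2 and the double mutant, also without *mlt-11*, which carried the most of the sum, and their part in these 3 results was not tested.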

How the results depend on the processing

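Of 513 member values under alternatives, 469 kept their direction and their side of the 5% rate, 22 lost and 8 gained a call, and 14 changed sign, all 14 when a library was left out. Those signs changed for *nlp-28* (-0.018 to 1.14 in *set-9*, -0.33 to 0.94 in *set-26*, -0.86 to 0.30 in the double mutant, -0.76 to 0.21 between the singles), *nlp-30* (-0.46 to 0.19 in *set-9*, -0.057 to 0.52 in the double mutant), *nlp-27* (-0.25 to 0.61) and *nlp-31* (-0.29 to 0.18) in *set-26*, and *nlp-29* (-0.016 to 0.28) and *cnc-4* (-0.36 to 0.78) between the singles. The cause was not tested.

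When single libraries were left out, the members called ran from 0 to 1 in *set-26*, 0 to 2 in the double mutant and 1 to 3 against the sum of the singles, and the genes called from 0 to 116 in *set-9*, 20 to 281 in *set-26*, 134 to 1411 in the double mutant, 0 to 59 between the singles and 332 to 1856 against the sum. The fits with one library less hold a lone sample assumed to vary like the others.

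As reported, 68 genes were called in *set-9*, 351 in *set-26*, 1516 in the double mutant, 102 between the singles and 2034 against the sum. DESeq2's Wald test called 502 genes in *set-9* (146 up), 838 in *set-26* and 459 between the singles, and 1 member in *set-9*. With no filter, 746, 989, 2485 and 599 genes were called in *set-9*, *set-26*, the double mutant and between the singles, with 1 member in *set-9* and 4 in the double mutant. That fit takes in every gene with any read, a larger set than the 14667, so its counts are not shares of the same genes. With 20 reads in every library, 108 genes were called in *set-9*. Fitted to the compared genotypes only, 0 genes were called in *set-9*, 15 in *set-26* with 0 members, and 0 between the singles.

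With the replicate block, 196, 721, 2442 and 308 genes were called in *set-9*, *set-26*, the double mutant and between the singles, and 4 members in the double mutant, where *nlp-27* and *nlp-31* then passed (adjusted p of 0.049 for each, edgeR). Deviations of same-numbered libraries had r from 0.067 to 0.35 across genes, and with only 2 numbers the libraries share a number, not a known pairing. Depth limits *cnc-2*, *cnc-6* and *cnc-11*, which stayed under 20 reads, and *nlp-28*, at 13 to 42 reads.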
